A study of Mus musculus with 2 samples.

Results

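The *Hes* and *Hey* genes encode basic helix-loop-helix (bHLH) repressors, and 9 of them, *Hes1*, *Hes2*, *Hes3*, *Hes5*, *Hes6*, *Hes7*, *Hey1*, *Hey2* and *Heyl*, were taken by symbol from the 22156 genes of the deposited table. All 9 were found. The table holds 1 RNA sequencing library of primary chondrocytes for each of 2 genotypes, control and *Myl3*-KO, and thus no replicate of either group. The labels give the tissue as rib cartilage, the methods name both rib and articular cartilage of newborn mice on a C57BL/6J background, and the cells grew as an untreated monolayer. In *Myl3*-KO mice a Cre recombinase driven by *Col2a1* deletes floxed *Myl3*, which encodes a myosin light chain. The labels give the genotype of the controls as WT, whereas the methods describe floxed littermates, and the number of animals pooled is not given in the sources used here. The comparison asks whether transcripts of these repressors differ when *Myl3* is deleted.

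Notch receptors are cleaved when a ligand on a neighbouring cell binds them, and the freed intracellular domain joins the DNA-binding protein RBPJ and Mastermind coactivators on target genes. *Hes1*, *Hes5*, *Hes7*, *Hey1*, *Hey2* and *Heyl* are known as direct targets in many tissues. Their products bind DNA as dimers, recruit corepressors of the Groucho (TLE) family or SIN3A complexes, and silence lineage genes. *Hes6* stands apart, since its product is known to inhibit HES1 and is often expressed without Notch input. In cartilage, Notch activity and HES1 are known to restrain *Sox9* and the matrix genes *Col2a1* and *Acan*.

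The libraries held 17612434.91 expected counts in control cells and 13477976.98 in *Myl3*-KO cells. A floor of 3 counts corresponded to 0.170 and 0.223 CPM (counts scaled to a common library total). *Myl3* itself had 0 counts in both libraries, which left no check of the labels by the deleted gene. Of 15 chondrocyte markers, 5 were at 0 counts in both libraries, among them *Acan*, *Matn1*, *Matn3* and *Hapln1*. *Col2a1* had 30 and 27 counts, *Col9a1*, *Col9a2* and *Comp* at most 2 in either library, and *Col11a2* 293 and 395. The summed level of the 15 markers was 126.3 CPM in control cells and 126.4 CPM in *Myl3*-KO cells. Of these sums, *Sox5* gave 50.7 CPM in each library, *Sox9* 49.2 and 35.6 CPM, and *Col11a2* 16.6 and 29.3 CPM.

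Promoter sequence was at hand for 4 of the 9 genes, in 5 windows of 300 bases from 250 before to 50 after the transcription start (RefSeq, GRCm38.p6). *Hes1*, *Hes2*, *Hes3*, *Hey1* and *Heyl* had no entry. The windows were searched on both strands for TGGGAA, the core letters of the RBPJ site, which 25.6% of all 32851 windows hold. The 250 bases before the start are shown for *Hey2*, which had reads in both libraries, *Hes5*, which had 0 counts, and *Hes6*, the most abundant of the family, at the outer of its 2 starts. Capitals mark TGGGAA or its reverse complement TTCCCA.
*Hey2*, chr10:30842784-30843033, minus strand: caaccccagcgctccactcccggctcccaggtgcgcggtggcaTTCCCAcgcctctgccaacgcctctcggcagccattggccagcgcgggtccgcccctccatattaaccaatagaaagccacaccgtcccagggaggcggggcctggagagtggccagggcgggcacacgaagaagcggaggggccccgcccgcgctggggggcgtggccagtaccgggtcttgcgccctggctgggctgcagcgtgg
*Hes5*, chr4:154960673-154960922, plus strand: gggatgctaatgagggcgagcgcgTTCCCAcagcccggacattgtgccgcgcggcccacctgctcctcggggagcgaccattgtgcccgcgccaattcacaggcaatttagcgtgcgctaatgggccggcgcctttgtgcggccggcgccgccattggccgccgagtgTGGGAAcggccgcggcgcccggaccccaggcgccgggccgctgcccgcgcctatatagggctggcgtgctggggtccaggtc
*Hes6*, chr1:91414039-91414288, minus strand: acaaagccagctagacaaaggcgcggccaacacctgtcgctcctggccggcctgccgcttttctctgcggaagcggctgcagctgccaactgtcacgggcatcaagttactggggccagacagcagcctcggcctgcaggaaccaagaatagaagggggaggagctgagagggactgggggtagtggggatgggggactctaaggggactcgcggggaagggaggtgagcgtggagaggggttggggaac

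The *Hes5* window held the letters 2 times, 226 and 82 bases before the start. The *Hey2* window also held them 2 times, 207 bases before the start and, on the strand of the gene, across the start itself from 3 bases before it, where the printed stretch ends. The *Hes7* window held them 1 time, 180 bases before the start. Neither *Hes6* window held them. Of the letters that HES and HEY dimers are known to bind, CACGTG was in 0 of the 5 windows, against 7.15% of all windows. CACGCG was in the *Hes7* window, 14 bases before the start, against 9.27% of all windows. The N-box letters CACNAG were in the other *Hes6* window, at a start inside the gene, 237 bases before that start and again 15 bases after it, and in the *Hes7* window, while 42.5% of all windows hold them. These 3 spellings and TGGGAA did not overlap each other at any match. The matches are a description of the letters, and binding was not measured.

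*Hes6* was by far the most abundant member in both libraries. Compared per length, its level was 15.48 FPKM (fragments scaled for transcript length and library size) in the control, with a 95% exact Poisson interval of 13.9 to 17.2, and 18.4 FPKM in *Myl3*-KO cells (16.5 to 20.5). This was 19.1 times the level of the next member, *Hes1*, in control cells and 4.73 times in *Myl3*-KO cells. *Hes1* was at 0.81 FPKM in the control (0.501 to 1.24) and 3.89 FPKM in *Myl3*-KO cells (3.07 to 4.86). *Hey2* followed at 0.58 and 0.9 FPKM, and *Hey1* at 0.21 and 0.67 FPKM. The order of these 4 genes was the same in both libraries.

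Neighbours in that order were not always distinct. In the control, the intervals of *Hes1* and *Hey2* overlapped, as did those of *Hey2* and *Hey1*, so only *Hes6* stood apart from its neighbour. The control intervals of *Hes1* (0.501 to 1.24 FPKM) and *Hey1* (0.096 to 0.399 FPKM), which were not neighbours, did not overlap. In *Myl3*-KO, *Hes1* also stood apart from *Hey2*, 4.32 times above it, while *Hey2* and *Hey1* still overlapped. The other members lay at or under the floor of 3 counts. All intervals cover counting error only.

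**Figure D1:**
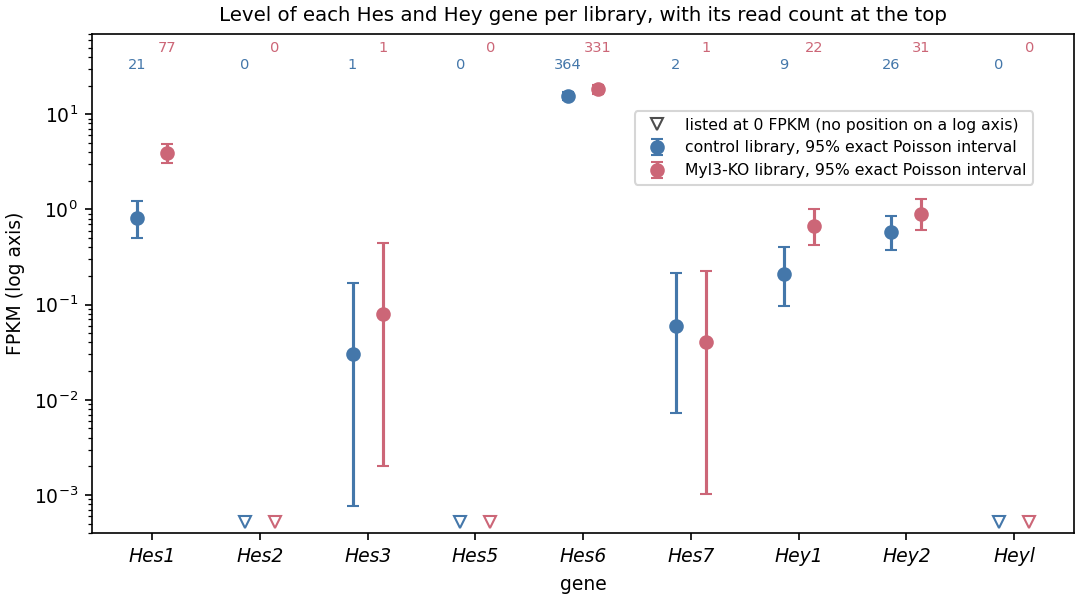
Level of each gene in FPKM on a log axis in the control (blue) and *Myl3*-KO (red) library, with 95% exact Poisson intervals as bars and the read count at the top. Open triangles at the lower edge mark genes listed at 0 FPKM. *Hes6* lies near 15.48 and 18.4 FPKM, and the intervals of the libraries are separate for *Hes1* and *Hey1* but not for *Hey2*.

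Between the libraries, *Hes1* and *Hey1* were higher in *Myl3*-KO cells, whereas *Hey2* and *Hes6* did not pass the test. Of the 9 genes, 4 had at least 10 counts over both libraries and were tested by a two-sided exact binomial test of their counts against the library totals. The test compares the reads of these libraries and not the genotypes, and in bulk RNA fewer cells of a type and less RNA per cell cannot be told apart. With the adjusted p under 0.05 and *Myl3*-KO higher, 2 of the 4 members tested were called, where 18.6% of the 12431 genes tested were. A log2 ratio of at least 1, that is 2-fold, was reached by the same 2 genes, where 2.16% of all genes tested reached it in this direction. A log2 ratio of at least 2 was reached by *Hes1* alone, where 0.249% of all genes tested did. *Hey1* had fewer than 10 counts in control cells and came into the test through its *Myl3*-KO counts. No member was lower by 2-fold, as 1.19% of all genes tested were, or lower with an adjusted p under 0.05, as 16.8% were.

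*Hes1* (ENSMUSG00000022528), the best known effector of Notch signaling, lies on chromosome 16 from 30064384 to 30067796 on the plus strand of GRCm38. It had 21 counts in control cells and 77 in *Myl3*-KO cells, or 1.19 and 5.71 CPM. The *Myl3*-KO library was thus the high one, and the Poisson intervals of the CPM values, 0.738 to 1.82 and 4.51 to 7.14, did not overlap. The ratio was 4.79-fold (log2 ratio 2.26, 95% Clopper-Pearson interval 1.55 to 3.03, exact binomial adjusted p = 3.96e-11 with Benjamini-Hochberg adjustment over all genes tested). This counts only sampling of reads. With a preset coefficient of variation of 0.2 between cultures, edgeR's exact test gave an adjusted p of 0.0886, and 4 of the 12431 genes tested then passed.

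Few genes with this many reads were higher in *Myl3*-KO cells by as much as *Hes1*. Its log2 ratio was at place 20 of the 12431 genes tested. Among the 11123 genes with at least 50 counts, 4 reached its ratio, itself included, and the others were *Gm14440*, *Adgrd1* and *Cdh15*, named here after their values were seen. Of the 1364 genes with at least 50 and under 200 counts, as *Hes1* had, 3.59% were higher by 2-fold and 0.22% by 4-fold. Even so, *Hes1* had fewer reads than most genes: 15.5% of the genes tested had fewer counts, and the median gene had 1053.

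*Hey1* (ENSMUSG00000040289, chromosome 3 from 8663359 to 8667256, minus strand) is a Notch target first known from the heart and vessels. It had 9 counts in control cells and 22 in *Myl3*-KO cells, or 0.511 and 1.63 CPM. The *Myl3*-KO library was again the higher one. The ratio was 3.19-fold (log2 ratio 1.68, 95% interval 0.50 to 2.98, exact binomial adjusted p = 0.0115). edgeR's exact test gave *Hey1* an adjusted p of 1 when the coefficient of variation was set to 0.2 or 0.4, and with at least 10 counts asked of each library it was not counted. Of the 730 genes with 20 to 49 counts, as *Hey1* had, 12.9% were higher by 2-fold and 1.64% by 4-fold. Its interval overlapped that of *Hes1*, so the ratios of these genes could not be told apart.

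*Hey2* (ENSMUSG00000019789, chromosome 10 from 30832359 to 30842801, minus strand), which encodes a close relative of HEY1, had 26 counts in control cells and 31 in *Myl3*-KO cells. These were 1.48 and 2.30 CPM, and their Poisson intervals overlapped. The log2 ratio was 0.64, with a 95% interval of -0.16 to 1.45 that holds both no difference and a rise past 2-fold (exact binomial adjusted p = 0.215). A difference was not detectable at this depth, and its interval overlaps that of *Hey1* too.

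*Hes6* (ENSMUSG00000067071, chromosome 1 from 91411483 to 91414038, minus strand) had 364 counts in control cells and 331 in *Myl3*-KO cells, or 20.7 and 24.6 CPM. The libraries lay close together, with a log2 ratio of 0.25 (95% interval 0.03 to 0.47, unadjusted exact binomial p = 0.0239, adjusted p = 0.0642). The upper end of this interval is below the lower end of that of *Hes1* and of that of *Hey1*. It overlaps the interval of *Hey2*.

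**Figure D2:**
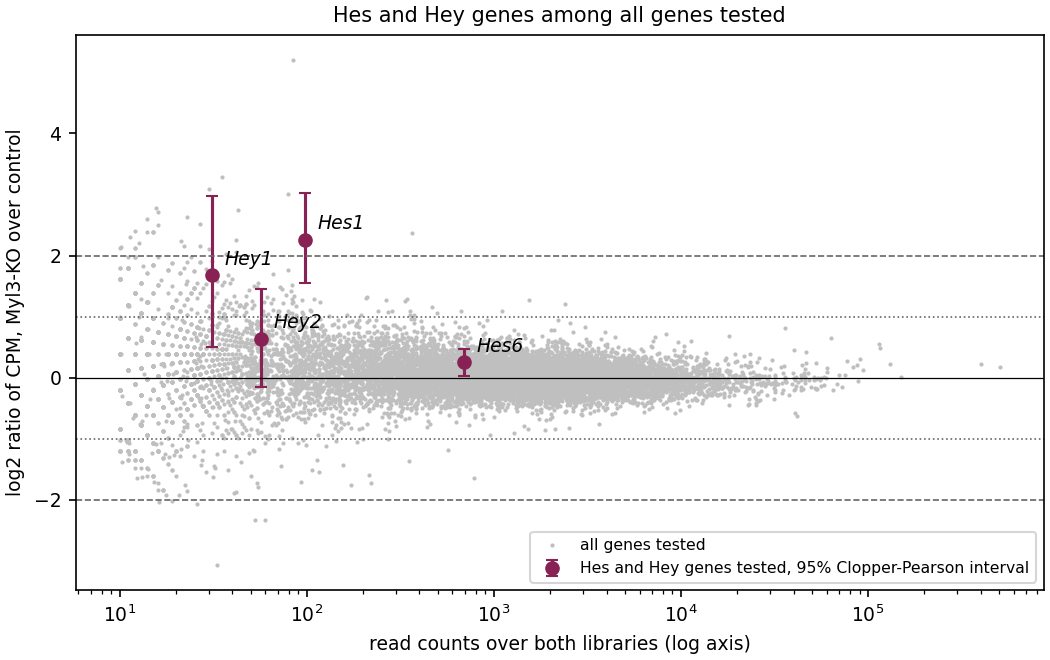
Log2 ratio of CPM, *Myl3*-KO over control, against read counts over both libraries on a log axis, for all 12431 genes tested (grey) and the 4 *Hes* and *Hey* genes tested (purple, with 95% Clopper-Pearson intervals). Dotted lines are 2-fold and dashed lines 4-fold. *Hes1* lies at 2.26 with few genes of like count beside it, *Hey1* at 1.68 where the spread of all genes is wide, and *Hes6* at 0.25 within the bulk.

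The remaining 5 members had between 0 and 2 counts in each library. *Hes5* (chromosome 4 from 154960923 to 154962371), a leading Notch target of neural progenitors, had 0 counts in both libraries. *Heyl* (chromosome 4 from 123233556 to 123249875), a Notch target of smooth muscle and vessels, and *Hes2* (chromosome 4 from 152158867 to 152162469) also had 0 counts in both. A count of 0 allows a level of up to 0.170 CPM in control cells and 0.223 CPM in *Myl3*-KO cells. *Hes7* (chromosome 11 from 69120404 to 69124055), an oscillating gene of the somite clock, had 2 counts in control cells and 1 in *Myl3*-KO cells. *Hes3* (chromosome 4 from 152285972 to 152291662), a gene of neural progenitors, had 1 count in each. No fold is given for these, since both libraries were under the floor. Over the whole table, 32.8% of genes were at 0 in both libraries.

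Summed over the family, the level was higher in *Myl3*-KO cells and the reads were spread differently over its genes. All 9 members together had 423 counts in control cells and 463 in *Myl3*-KO cells, or 24.0 and 34.4 CPM, a log2 ratio of 0.52 (95% interval 0.32 to 0.71). Without *Hes1* the log2 ratio of the sum was 0.33 (0.12 to 0.53). *Hes6* gave 86.1% of the reads in the control (95% Clopper-Pearson interval 82.4 to 89.2) and 71.5% in *Myl3*-KO cells (67.1 to 75.6). *Hes1* gave 4.96% in the control (3.10 to 7.49) and 16.6% in *Myl3*-KO cells (13.4 to 20.3). The intervals were separate between the libraries for both genes. *Hey2* held 6.15% and 6.70%, and *Hey1* 2.13% and 4.75%, with overlapping intervals.

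The same held per length, where *Hes6* made up 90.2% of the summed FPKM in control cells and 76.7% in *Myl3*-KO cells, and *Hes1* 4.72% and 16.2%. The 3 *Hey* genes summed to 35 counts in control cells and 53 in *Myl3*-KO cells, a log2 ratio of 0.98 (0.34 to 1.64). The *Hes* genes other than *Hes6* summed to 24 and 79 counts, of which *Hes1* gave all but 3 and 2.

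**Figure D3:**
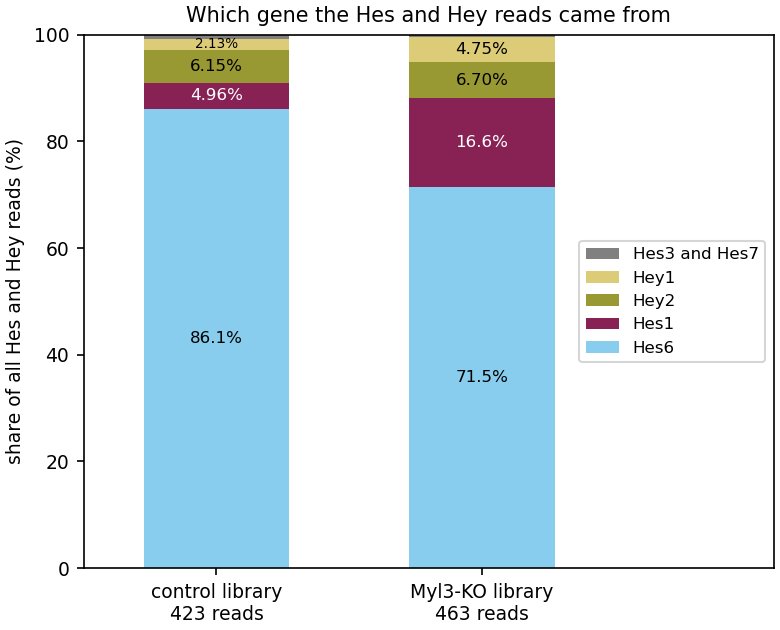
Share of all *Hes* and *Hey* reads, in percent, that came from each gene in the control (423 reads) and *Myl3*-KO (463 reads) library, as stacked bars. The share of *Hes6* went from 86.1% to 71.5% and that of *Hes1* from 4.96% to 16.6%.

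Apart from *Hes5* and *Hes7*, the members share little or no sequence with other genes, and all 9 members had whole counts in both libraries, to within 0.001. None of the 31-base words in the coding transcripts of *Hes1*, *Hes3*, *Hes6*, *Hey1*, *Hey2* or *Heyl* occurs in a transcript of another gene. Of those of *Hes5*, *Hes7* and *Hes2*, 27.9%, 14.3% and 0.60% do, where a match of the word or of its reverse complement was counted. *Hes5* overlaps the antisense *Gm20421*, which holds all 347 of its shared words. *Hes7* overlaps *9130213A22Rik* on the opposite strand, which had 3 and 5 counts and holds 148 of its 253 shared words. Whether the counting used strand is not given in the sources used here.

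Counts and FPKM together give the transcript length that the quantification used. This was 1472 and 1469 bases for *Hes1*, 1335 bases in both libraries for *Hes6*, 2433 and 2436 for *Hey1* and 2545 and 2556 for *Hey2*. The annotated coding transcripts of these genes are 1468, 1335, 2423 and 2550 bases long, and the lengths used differed little between the libraries. *Hes3* was the exception. Its 1 read in the control implied 1622 to 2271 bases after rounding and its 1 read in *Myl3*-KO cells 873 to 989. *Hes3* has coding transcripts of 1829 and 962 bases. Its FPKM values of 0.03 and 0.08 therefore came from equal counts.

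Upstream of these genes in the pathway, *Jag1*, a Notch ligand, was at 4.26 FPKM in control cells and 9.08 in *Myl3*-KO cells (421 and 687 counts, log2 ratio 1.09). *Notch1* went from 139 to 217 counts (log2 ratio 1.03). The other ligand tested, *Jag2*, had 37 and 29 counts, and *Dll1*, *Dll3* and *Dll4* had at most 2 in either library. Of the 5 ligands and 4 receptors, 5 were tested and 2 were higher by 2-fold, against 2.16% of all genes tested. *Notch2*, the most abundant receptor per length at 10.61 and 13.38 FPKM, had a log2 ratio of 0.33 (95% interval 0.24 to 0.43). *Notch4* had 21 and 27 counts and did not pass the test, and *Notch3* had 2 in each library.

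Of 10 genes of the nuclear Notch complex, 9 were tested, 4 passed the test as higher and 0 as lower, where 18.6% and 16.8% of all genes tested did, and 0 differed by 2-fold. The median log2 ratio was 0.14, against 0.02 over all genes tested. *Rbpj*, which encodes the DNA-binding partner, was at 38.72 FPKM in control cells and 44.68 in *Myl3*-KO cells (log2 ratio 0.21, 95% interval 0.14 to 0.28, exact binomial adjusted p = 3.30e-08). The coactivator genes *Maml3*, *Ep300* and *Crebbp* were the other 3 that passed the test, with log2 ratios of 0.32, 0.14 and 0.26. *Maml1* and *Maml2* did not pass it.

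Among 12 genes of receptor cleavage and glycosylation, 11 were tested, 0 differed by 2-fold and the median log2 ratio was -0.04. Of these, 3 passed the test as higher and 1 as lower, beside 18.6% and 16.8% of all genes tested. *Ncstn*, a subunit gene of gamma-secretase, was higher at 0.38 and *Psenen*, another, lower at -0.27. Of 13 modulators of the pathway, 11 were tested, 6 passed the test as higher and 2 as lower, again beside 18.6% and 16.8%, 0 differed by 2-fold and the median was 0.24. *Dtx3*, a Deltex ubiquitin ligase gene, had the largest log2 ratio of these at 0.61.

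Corepressor genes through which HES and HEY proteins act lay at levels from 0.24 FPKM for *Runx1t1* to 196.1 FPKM for *Hdac2* in the control. The 12 genes reported, with *Tle5* under its older symbol *Aes*, were tested. Of these, 3 were higher and 2 lower with an adjusted p under 0.05, where 18.6% and 16.8% of all genes tested were, and 0 differed by 2-fold. Their median log2 ratio was 0.08. The Groucho genes *Tle2* and *Tle3* were higher at 0.58 and 0.38, as was *Ncor1* at 0.10, while *Hdac1* and *Hdac2* were the 2 lower genes that passed the test. *Tle1*, *Tle4* and *Tle6* did not pass it.

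Of the bHLH partner and Id genes, 6 of 7 were at higher levels per length than *Hes6*, the exception being *Id4* at 1.55 and 0.75 FPKM. The E protein gene *Tcf3* was at 74.02 and 74.95 FPKM, and *Id3*, which encodes an inhibitor of bHLH dimers, at 340.1 and 337.8 FPKM. Of these 7 genes, all were tested and *Id4* alone differed by 2-fold, against 1.19% of all genes tested that were lower by as much. *Id4* went from 105 counts in control cells to 39 in *Myl3*-KO cells (log2 ratio -1.04, 95% interval -1.61 to -0.50, exact binomial adjusted p = 0.000424). *Tcf4* and *Tcf12* passed the test as higher, at log2 ratios of 0.17 and 0.12, and *Id4* as lower, beside 18.6% and 16.8% of all genes tested. The median of the list was -0.01. The related bHLH-Orange genes *Bhlhe40* and *Bhlhe41*, clock-linked repressors, had log2 ratios of -0.04 and -0.63, of which *Bhlhe41* passed the test, and *Helt* had 0 and 1 counts. Their median was -0.33.

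Of 9 genes known to be repressed by HES or HEY factors and reported here, 5 were at 0 counts in both libraries, among them the proneural genes *Neurog1*, *Neurog2* and *Atoh1*. *Cdkn1b* and *Cdkn1c*, cell cycle inhibitor genes, had log2 ratios of 0.07 and 0.22, *Gata4* 0.09 and *Col2a1* 0.23, and none of these passed the test. The median over these 4 genes was 0.16. *Sox9*, named above as restrained by HES1, was not on this list. It was lower in *Myl3*-KO cells, with a log2 ratio of -0.47, and passed the test, as 16.8% of all genes tested did in this direction. The 4 list genes tested all had positive log2 ratios. Whether HES1 had a part in the level of *Sox9* was not tested.

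Other genes known as Notch targets went in different directions. *Nrarp*, a feedback inhibitor gene, and *Dtx1* had 0 counts in both libraries. *Ccnd1*, which encodes cyclin D1, went from 136.1 to 221.7 counts (log2 ratio 1.09), while *Myc* was lower at -0.31. *Cdkn1a* had 22 counts in control cells and 12 in *Myl3*-KO cells and did not pass the test, nor did *Gata3* with 29 and 24. *Il2ra* had 0 and 2 counts, and *Ptcra* was not analysed here. The median over the 4 genes tested was -0.10.

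**Figure D4:**
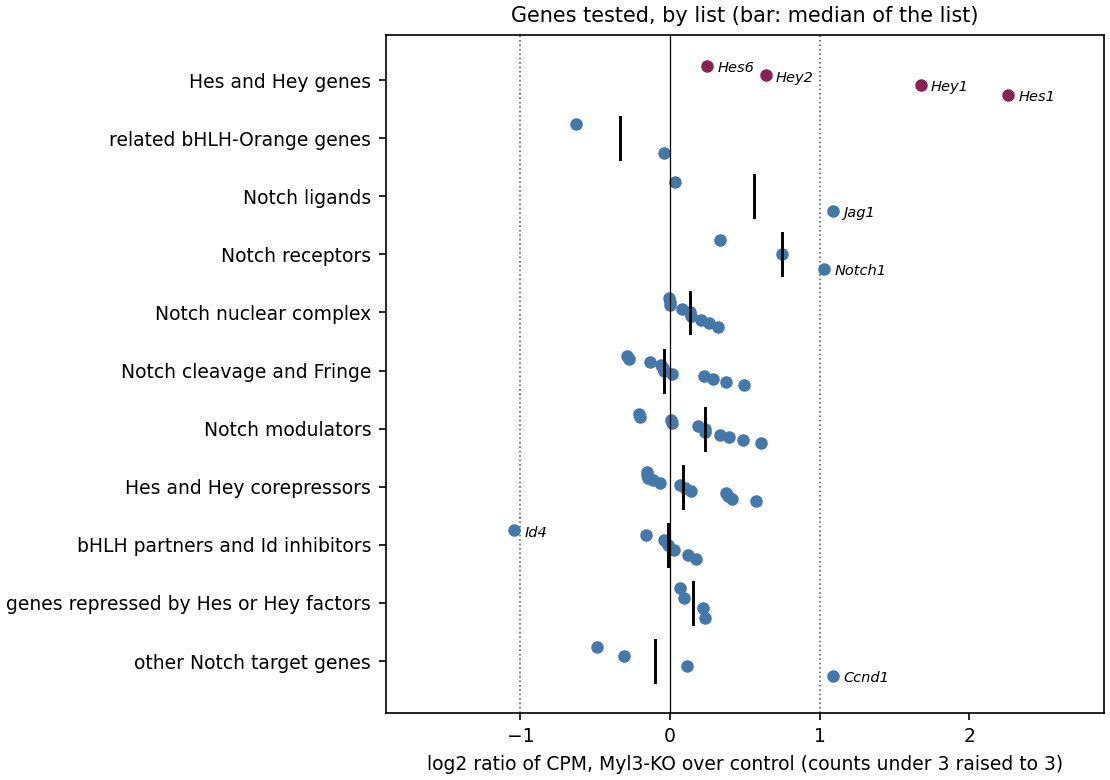
Log2 ratio of CPM, *Myl3*-KO over control, for each gene tested in the lists (points), with the median of each list other than the *Hes* and *Hey* genes as a bar and 2-fold as dotted lines. Counts under 3 are raised to 3. *Hes1* and *Hey1* lie beyond the 2-fold line, as do *Jag1*, *Notch1*, *Ccnd1* and *Id4*.

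Several genes had count patterns close to that of *Hes1*. By distance between the pairs of log2 CPM values over the 2 libraries, the nearest were *Klhdc8b* (0.44), *Ntn4* (0.53), *Fblim1* (0.61), *Celsr2* (0.65) and *Mapt* (0.65). Their ratios were all smaller, from 3.39-fold for *Klhdc8b* (22 and 57 counts) to 2.52-fold for *Mapt* (29 and 56 counts). The nearest to *Hey1* were *Zfp455* (0.16), *Adamtsl2* (0.18) and *P2rx3* (0.21), with ratios of 3.01, 3.76 and 2.76-fold. With 2 libraries, such likeness describes level and ratio only.

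Markers of other cells that express *Hes* and *Hey* genes were looked at beside these values. Of 8 endothelial markers, 4 (*Cdh5*, *Tie1*, *Emcn* and *Cldn5*) were at 0 in both libraries, and the list summed to 2.04 CPM in control cells and 2.08 in *Myl3*-KO cells. Of 9 satellite and myogenic markers, 6 (*Pax7*, *Myf5*, *Myod1*, *Myog*, *Chrdl2* and *Des*) were at 0. This list nonetheless went from 12.3 to 31.8 CPM, through *Cdh15*, a cadherin gene with 73 and 290 counts. *Pax3*, the other gene of the list with the reads to be tested, had 143 and 139 counts and did not pass the test. Mural markers, of which 0 of 8 were at 0, went from 260.8 to 397.2 CPM, mostly *Pdgfrb* with 3689 and 4617 counts. Of the 5 mural markers tested, *Pdgfrb* and *Cspg4* passed the test as higher (log2 ratios 0.71 and 0.48) and *Mcam* as lower (-0.33). Over all genes tested, 18.6% passed the test as higher and 16.8% as lower. *Acta2* had 172 and 127 counts, *Myh11* 7 and 2, *Cnn1* 4 and 1, *Rgs5* 7 and 14 and *Tagln* 1 and 2, none of which passed it or had the reads to be tested. The part of these marker levels in the higher *Hes1* and *Hey1* was not tested. Glial and neural markers summed to 14.0 and 16.1 CPM with *Sox10* at 0, and immune markers to 4.71 and 4.30 CPM. Fibroblast markers summed to 15461 and 17531 CPM, mostly *Col1a2* at 12017 and 14039 CPM. *Dcn* and *Lum* were lower in *Myl3*-KO cells at log2 ratios of -1.64 and -1.36, and *Thy1* had 0 counts in both libraries. Of the 7 genes of that list tested, 3 passed the test as higher and 3 as lower, beside the same shares of all genes. Of the 7 chondrocyte markers tested, *Sox9* was lower at -0.47 (866 and 480 counts), *Col11a2* was higher at 0.82, and the other 5 did not pass the test.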

How the data were processed

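The authors deposited, per the file headers, expected counts (estimated reads per gene, not normalized) and FPKM values for 1 control and 1 *Myl3*-KO library. The aligner and counting tool are not given in the sources used here, and the submitters' processing notes name GRCm38 and mm10. The column headed NC was read as control, since the other is headed KO. Counts were rounded for the exact binomial test and the Clopper-Pearson intervals. Ratios of CPM used unrounded counts, with counts under 3 raised to 3. The test was run on the 12431 genes whose counts summed to 10 or more, with Benjamini-Hochberg adjustment over all of them and a threshold of 0.05. With 1 library per group, edgeR's quasi-likelihood test has no residual degrees of freedom and was not run. Alternatives were TMM factors, DESeq2 size factors, 1 added count, other count filters, the FPKM ratio and edgeR's exact test at preset coefficients of variation of 0.2 and 0.4. The members, lists and the rule for named genes (all members, the list genes, and the 5 genes nearest to *Hes1* and 3 nearest to *Hey1* by log2 CPM) were chosen with earlier results of these data known. Of the list genes, 2 are not reported here and are left out of the counts and medians of their lists. Protein sequences were not used here. Positions and transcripts are from GENCODE M21 on GRCm38. The test was tried on simulated data. Versions were Python 3.11.15, scipy 1.17.1, R 4.3.3, edgeR 4.0.16 and, for size factors, DESeq2 1.42.0.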

Additional observations from a re-analysis of the deposited data

How the results depend on the processing

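No paired analysis was possible because each group holds 1 library, and no replicate could be left out for the same reason. Of 59 alternative values, 54 were counted as the same and 0 as reversed. For genes and sums, this asked for the same direction and side of the threshold, or a value within the interval. With 1 count added, the main adjusted p was kept. Medians of lists could count as reversed only at a size of at least 1, so nearly all were bound to count as the same. Under TMM factors the medians of fibroblast markers (0.012 to -0.006) and of all genes tested (0.017 to -0.001) changed sign. When edgeR's exact test was given a coefficient of variation of 0.2 or 0.4, *Hes1* (log2 ratio 2.25) no longer passed the threshold, with adjusted p = 0.0886 and 1, against 3.96e-11 to 4.48e-11 under the other scalings. *Hey1* (log2 ratio 1.66) did not pass either, with adjusted p = 1 in both, against 0.0115 to 0.0116. These settings assume more spread between cultures than counting alone, and 4 and 1 of the 12431 genes passed in all. With at least 10 counts in each library, 1 member in place of 2 was higher by 2-fold, because *Hey1* had 9 counts in the control. TMM factors moved all log2 ratios by -0.02. Depth limits the statements on *Hey2* and on the 5 members under the floor.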

Other observations

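The KEGG pathway column of the deposited table annotates 2 of the 9 *Hes* and *Hey* genes, *Hes1* and *Hes5*, to Notch signaling and leaves out the other 7. Of the annotated genes, *Hes5* had 0 counts in both libraries, which leaves *Hes1* as the member with reads under that annotation. *Hey1*, with 9 and 22 counts, and *Hey2*, with 26 and 31, lay outside it.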
